A study of Sus scrofa with 9 samples.

Results

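CD40LG and the CD28 family of costimulatory genes were examined in sorted T cells from pig blood. The members were chosen by name and role, with earlier results of these data known. Counts of members set beside the share over all tested probes are therefore a description. CD40LG, CD28, ICOS and CTLA4 act on the T cell side, and CD80, CD86 and CD40 act on the antigen-presenting side. The arrays carried 11 probes for these 7 genes, out of 43603 probes, of which 6730 could be given a name, for 3052 genes. Testing required a probe to stand well above background throughout 1 or more of the fractions (3 of 3 arrays), as 16023 probes did. This held for 7 of the 11 member probes, of CD40LG, CD28, ICOS, CD80 and CD86. The CTLA4 probe, both CD40 probes and the dimmer of 2 CD80 probes were not tested. Of the 7 tested probes, 6 were well above background on all 9 arrays. Coordinates are left out, since no build is named in the files.

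T cells need a signal beside that of the antigen receptor to be activated. CD28 on the T cell gives it when it binds CD80 or CD86 on an antigen-presenting cell, and CTLA4 binds the same ligands and restrains the response. ICOS, a relative of CD28, is induced on activated T cells and supports help to B cells. CD40LG is the ligand by which helper T cells engage CD40 on B cells, dendritic cells and macrophages. In the pig, T cells with CD4 and CD8 together on their surface are, in blood, a large population that is regarded as rich in activated and memory helper cells. In the pig annotation Sscrofa11.1, CD28, CTLA4 and ICOS lie on 1 chromosome, with CTLA4 as the 1 gene between the other two.

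All samples were total RNA from sows, taken from blood mononuclear cells that had been purified on Percoll and then separated with a cell sorter. The 3 fractions were CD3+CD4+CD8+ (DP), CD3+CD4+ (the CD4 fraction) and CD3+CD8+ (the CD8 fraction), with 3 arrays each. The stated design set DP against each of the others, so both comparisons share the DP arrays, and CD4 against CD8 was added here. No treatment is named, and each fraction is defined only by the surface markers it carried. The antibodies, the sort purity and the number and age of the sows are not given in the sources at hand. The replicates are called biological, but whether each came from a separate sow is not given, so p-values measure the spread between these samples. In such bulk samples, fewer cells of a type and less RNA per cell cannot be told apart.

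Levels are log2 signals relative to the array's 75th percentile, so a level of 0 equals that percentile, and levels of different probes were not set against each other. The 75th percentile signal ran from 15.2 to 84.1 intensity units over the 9 arrays, and 32.6% to 53.7% of probes were well above background. The arrays lay on 3 slides, with DP array 1 alone on the first. The sorting markers matched the labels, with CD4 higher in DP than in CD8 by 4.17 (limma adjusted p = 0.0208), where 1 of 3 CD8 arrays measured it, and CD8A higher in DP than in CD4 by 3.20 (limma adjusted p = 0.0179). CD4 transcript was at 1.09 to 2.78 in DP and 1.47 to 2.35 in CD4, and among the CD8 arrays only array 2 had it well above background. CD8A transcript was at 2.84 to 4.32 in DP, -0.40 to 0.94 in CD4 and 4.72 to 5.81 in CD8. CD3D, CD3E and CD3G were well above background on every array and none differed between fractions at a limma adjusted p under 0.05. Summed levels add the genes' signals on the linear scale, in multiples of the array's 75th percentile signal. The 6 tested of 10 T cell marker genes summed to 136 to 254 in DP, 150 to 257 in CD4 and 171 to 254 in CD8. Of these, CD2 was well above background on 8 arrays and had no value on DP array 2, which its fit and that array's sum leave out. Of 7 platelet and erythrocyte genes 3 were on the array and 2 were tested, and they summed to 2.16 to 3.31, 2.33 to 3.26 and 1.12 to 3.57. In both lists 0 genes were called by limma and 0 had an unadjusted p under 0.05. A probe was called if its Benjamini-Hochberg adjusted p over the 16023 tested probes was under 0.05 in limma, with two-sided tests.

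CD40LG, the helper ligand, had the largest difference of the tested member probes. Its level in DP was 23.3-fold that of the CD8 fraction. It was the only 1 of the 7 tested member probes called in that comparison, in which 0.312% of all tested probes were called, and 0.131% were called with DP above. In the same comparison 5 member probes had an unadjusted p under 0.05, as did 6.52% of all tested probes. In DP against CD4, 0 member probes were called, against 0.293% of all tested probes, and 5 had an unadjusted p under 0.05 in limma, against 4.84%. In CD4 against CD8, 0 were called, against 0.437% of all tested probes, and 2 had an unadjusted p under 0.05 in limma, against 4.54%.

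**Figure D1:**
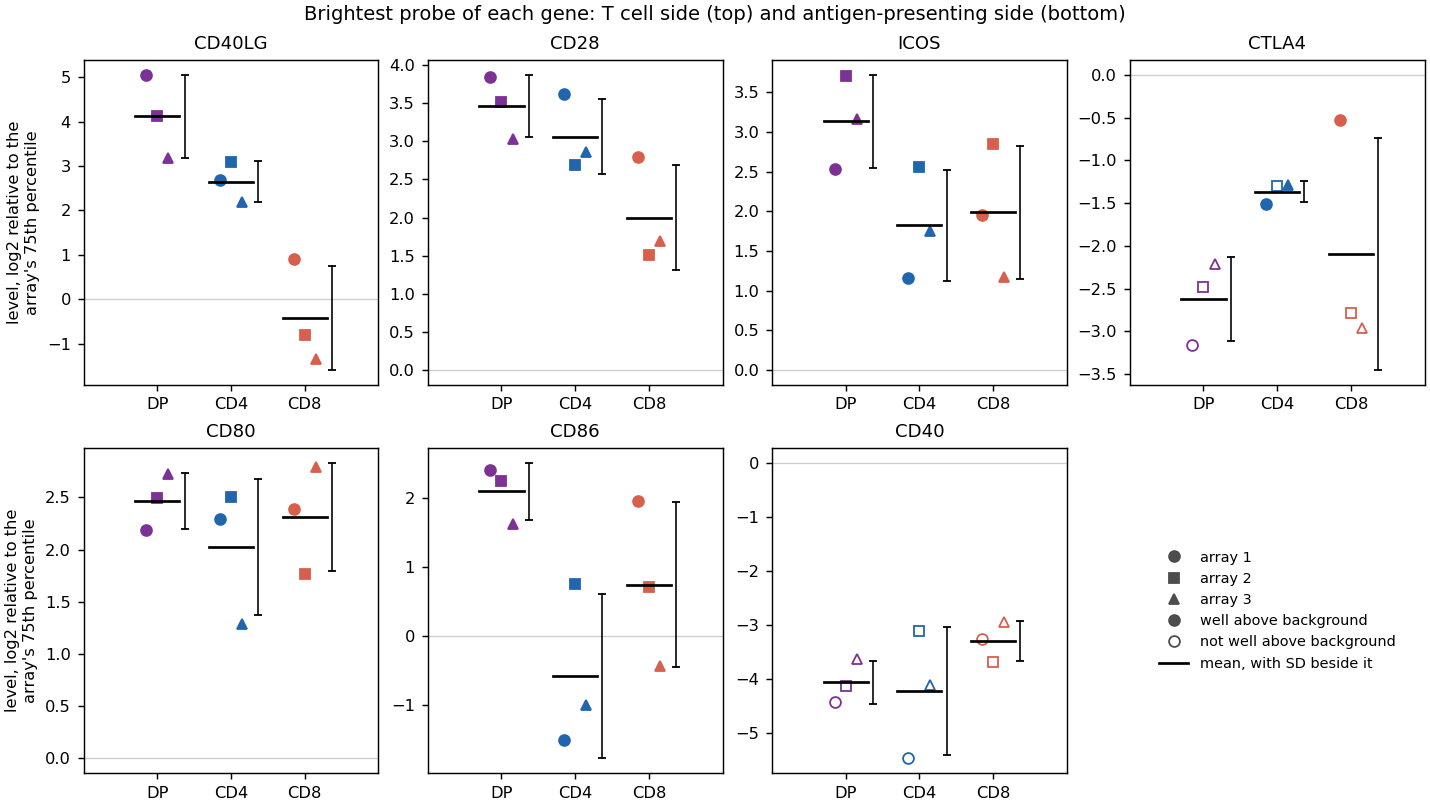
Level of the brightest probe of each member on each array (y axis: log2 signal relative to the array's 75th percentile; x axis: fraction; bars: mean, with the SD beside it; open symbols: not well above background). CD40LG lay at 3.19 to 5.05 in DP, 2.18 to 3.09 in CD4 and -1.35 to 0.91 in CD8, while CD40 stayed at background throughout.

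The CD40LG probe (A_72_P303229) was at 5.05, 4.12 and 3.19 on DP arrays 1 to 3, at 2.68, 3.09 and 2.18 on the CD4 arrays, and at 0.91, -0.81 and -1.35 on the CD8 arrays. Every DP array was above every CD4 array, by a narrow margin between DP array 3 and CD4 array 2, and every CD4 array was above every CD8 array. In processed signal, before scaling, the range was 173.3 to 1318 in DP, 129.3 to 540.8 in CD4 and 11.7 to 34.5 in CD8, and the probe was well above background on all 9 arrays. The group means were 4.12 ± 0.93 in DP, 2.65 ± 0.45 in CD4 and -0.42 ± 1.18 in CD8 (SD, n = 3 each).

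For CD40LG, DP exceeded CD8 by 4.54 on the log2 scale (SE 0.61, 95% interval 3.22 to 5.86, limma adjusted p = 0.00927). The probe ranked 7 by p among all tested probes in that comparison. The CD4 fraction lay 3.07 above the CD8 fraction in CD40LG (SE 0.61, 1.75 to 4.38), which is 8.39-fold, with a limma adjusted p of 0.0506, just outside the threshold. DP lay 1.47 above CD4 (SE 0.61, 0.16 to 2.79), with a limma adjusted p of 0.829. The order of the means was DP, CD4, CD8, and in this fit, which has no block, the outer pair alone passed the test.

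The CD40LG difference between DP and CD8 was also present within slides, at 4.08 on slide 2 and 4.54 on slide 3. Slide 2 held 1 DP, 1 CD4 and 2 CD8 arrays, and slide 3 held 1 DP, 2 CD4 and 1 CD8 array, so within-slide differences rest on single arrays. Within the same slides DP exceeded CD4 by 1.04 and 0.76, and CD4 exceeded CD8 by 3.04 and 3.78. With the slide as a block in the limma fit, DP minus CD8 was 4.24 with an adjusted p of 0.0747, and CD4 minus CD8 was 3.40 with an adjusted p of 0.0331. The DP against CD8 call was also lost without DP array 1 (4.08, limma adjusted p = 0.0549), without CD8 array 2 (4.34, limma adjusted p = 0.0736) and with normexp background correction (2.87, limma adjusted p = 0.0732). Without DP array 3, CD4 minus CD8 passed, with a limma adjusted p of 0.0263. With each array left out in turn, CD4 minus CD8 ran from 2.60 to 3.73, with limma adjusted p from 0.0263 to 0.264, and with normexp it was 1.60 (limma adjusted p = 0.691).

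CD8 array 1 had the highest level of its fraction for CD40LG, for CD28 and for CTLA4, and also at both CD86 probes and the dimmer CD80 probe. On that array the CD4 transcript was not well above background (-3.27), and the summed level of 4 B cell marker genes was 26.2, against 9.56 and 20.8 on the other CD8 arrays. The part of either in the CD8 levels was not tested. Without CD8 array 1, CD40LG in CD4 exceeded CD8 by 3.73 with a limma adjusted p of 0.0380.

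**Figure D2:**
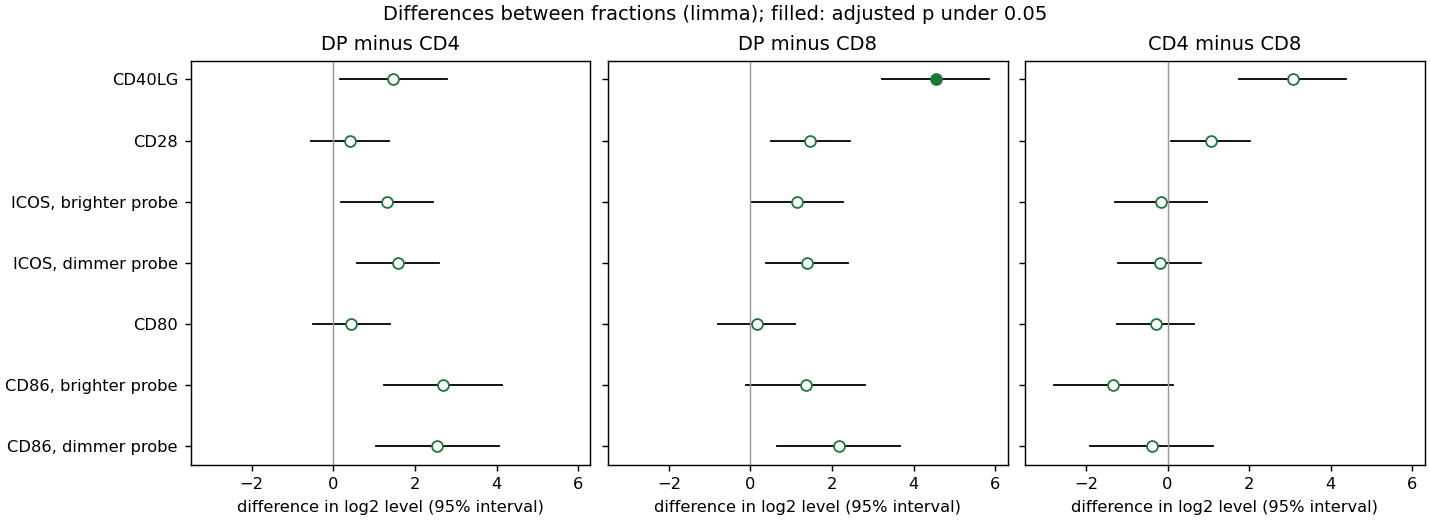
Differences in log2 level between fractions for the 7 tested member probes (x axis: first minus second fraction; points: limma estimate; lines: 95% interval; filled points: adjusted p under 0.05). The filled point is CD40LG in DP minus CD8, at 4.54; the CD86 estimates in DP minus CD4 are 2.68 and 2.54, with intervals above 0 and unfilled points.

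CD28, the receptor for CD80 and CD86, followed the same order of means with smaller gaps, and none of its differences was called. Its probe (A_72_P443358) was at 3.84, 3.52 and 3.03 in DP, at 3.62, 2.70 and 2.86 in CD4, and at 2.79, 1.51 and 1.70 in CD8. DP and CD4 arrays overlapped, CD4 and CD8 arrays overlapped through CD8 array 1, and the DP arrays lay above all CD8 arrays. DP minus CD8 was 1.47 (SE 0.45, 95% interval 0.50 to 2.43, limma adjusted p = 0.335) and CD4 minus CD8 was 1.06 (0.10 to 2.02, limma adjusted p = 0.977). DP minus CD4 was 0.41 (-0.56 to 1.37), and it had opposite signs on the 2 slides that held both fractions (0.83 and -0.21).

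Across the 9 arrays, the levels of CD28 and CD40LG had a Pearson correlation of 0.916, given as a description, since the arrays share fractions and slides. From the highest to the lowest fraction, the CD40LG means spanned 4.54 on the log2 scale and the CD28 means 1.47.

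ICOS was represented by 2 probes. The brighter one (A_72_P077901) was at 2.53, 3.70 and 3.16 in DP, at 1.16, 2.56 and 1.75 in CD4, and at 1.95, 2.84 and 1.17 in CD8. DP array 1 was the lowest DP array and fell within the range of both other fractions. The dimmer probe (A_72_P413053) was at 1.12, 1.73 and 1.52 in DP, at -0.28, -0.25 and 0.13 in CD4, and at -0.77, 0.28 and 0.67 in CD8, and its DP arrays were above all others. The probes correlated at 0.628 over the 9 arrays.

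For ICOS, DP minus CD4 was 1.31 at the brighter probe (SE 0.52, 95% interval 0.18 to 2.44, limma adjusted p = 0.767) and 1.58 at the dimmer one (SE 0.47, 0.57 to 2.60, limma adjusted p = 0.308). DP minus CD8 was 1.15 (0.02 to 2.27, limma adjusted p = 0.755) and 1.39 (0.38 to 2.40, limma adjusted p = 0.460). None of these was called. CD4 minus CD8 was -0.16 (-1.29 to 0.96) and -0.19, and its sign turned at both probes in some alternative fits. The ICOS means were thus highest in DP, with the CD4 and CD8 fractions overlapping.

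CTLA4, the inhibitory receptor for the same ligands, was too dim to be tested. Its probe (A_72_P302909) was at -3.16, -2.48 and -2.21 in DP, at -1.51, -1.30 and -1.29 in CD4, and at -0.53, -2.79 and -2.97 in CD8. It was well above background on CD4 arrays 1 and 3 and on CD8 array 1, and on no DP array. The DP signal was at least 1.44-fold lower than in the CD4 fraction, a bound that sets the background level of the DP arrays against the CD4 mean, of which 2 of 3 arrays measured the probe. No bound could be given against the CD8 fraction.

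**Figure D3:**
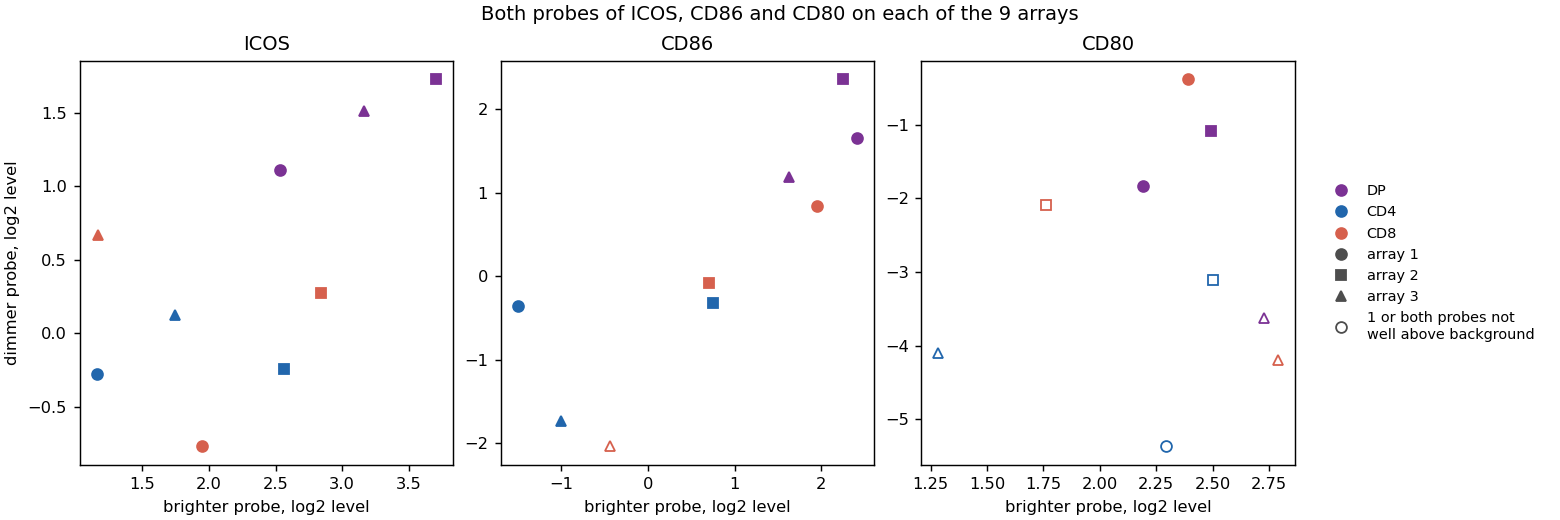
Dimmer against brighter probe of ICOS, CD86 and CD80 on each array (both axes: log2 level; colour: fraction; symbol: array; open: 1 or both probes not well above background). The CD86 probes correlated at 0.850 over the 9 arrays, while the dimmer CD80 probe was well above background on 3 arrays only.

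On the antigen-presenting side, CD86 had the largest differences between DP and CD4, at both of its probes and without a call. The brighter probe (A_72_P035396) was at 2.41, 2.25 and 1.63 in DP, at -1.51, 0.76 and -1.01 in CD4, and at 1.95, 0.71 and -0.44 in CD8. The dimmer probe (A_72_P539768) was at 1.65, 2.36 and 1.19 in DP, at -0.36, -0.33 and -1.74 in CD4, and at 0.85, -0.08 and -2.04 in CD8. At both probes all DP arrays lay above all CD4 arrays. Against CD8 the DP arrays were separate at the dimmer probe only, where CD8 array 3 was not well above background.

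DP minus CD4 for CD86 was 2.68 at the brighter probe (SE 0.67, 95% interval 1.23 to 4.14, a 6.42-fold ratio, limma adjusted p = 0.168). It was 2.54 at the dimmer probe (SE 0.70, 1.04 to 4.05, limma adjusted p = 0.228). DP minus CD8 was 1.35 (-0.10 to 2.81, limma adjusted p = 0.818) and 2.16 (0.65 to 3.66, limma adjusted p = 0.417), and CD4 minus CD8 was -1.33 (-2.78 to 0.12) and -0.38, the latter with a sign that turned in some alternative fits. On slides 2 and 3, DP minus CD4 was 1.49 and 2.89 at the brighter probe and 2.69 and 2.24 at the dimmer one. A CD86 probe passed in limma fits with no filter on dim probes (the brighter, adjusted p = 0.0471) and with array weights (the dimmer, 2.75, adjusted p = 0.0321), and normexp background correction reduced the brighter probe's difference to 1.35. With each array left out in turn, that difference ran from 2.22 to 3.35, the highest without CD4 array 2.

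B cells, monocytes and dendritic cells are the usual carriers of CD86, so markers of these and of natural killer cells were read beside it. B cell markers, with 4 of 10 listed genes on the array, had a summed level of 7.22 to 16.4 in DP, 3.05 to 4.31 in CD4 and 9.56 to 26.2 in CD8. Within that list CD74, the invariant chain of class II molecules, lay 2.15 above CD4 in DP (limma adjusted p = 0.0918), whereas CD79A, part of the B cell receptor, differed by -0.22 there and was lower in DP than in CD8 (-3.20, limma adjusted p = 0.0452).

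Monocyte markers, 9 of 13 on the array, had a summed level of 0.943 to 4.59 in DP, 2.11 to 2.51 in CD4 and 1.25 to 6.70 in CD8. LYZ was well above background on 7 of 9 arrays, including the 3 DP arrays, S100A12 on 6, CD14 on 5, CD36 on 3 and CD163 on 1. FCGR1A, TLR4, S100A8 and S100A9 never stood well above background, and of the 2 tested monocyte genes 0 were called or had an unadjusted p under 0.05 in limma. The natural killer list, 3 of 8 on the array, summed to 1.76 to 8.13, 0.242 to 0.621 and 6.34 to 20.9 in the same order. Its receptor KLRK1, also carried by cytotoxic T cells, was 5.21 higher in DP than in CD4 on the log2 scale (limma adjusted p = 0.00589), where 1 of 3 CD4 arrays measured it. Of the other listed genes, NCR1 was well above background on no array and KLRB1 on 1, in the CD8 fraction. Of the dendritic cell list, 1 of 11 genes was on the array, XCR1, with a linear level of 0.0465 to 0.328 and well above background on 1 array. The part of these cells in the CD86 levels was not tested.

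CD80, the other ligand of CD28 and CTLA4, showed no separation. Its brighter probe (A_72_P088196) was at 2.19, 2.49 and 2.73 in DP, at 2.29, 2.50 and 1.28 in CD4, and at 2.39, 1.76 and 2.79 in CD8. The arrays of the 3 fractions overlapped. DP minus CD4 was 0.44 (95% interval -0.51 to 1.39), DP minus CD8 was 0.16 (-0.793 to 1.104) and CD4 minus CD8 was -0.29 (-1.24 to 0.66). None was called (limma adjusted p = 1.00, 1.00 and 0.999). The dimmer CD80 probe (A_72_P186596) was well above background on DP arrays 1 and 2 and CD8 array 1 only, at -1.84, -1.09 and -0.39. Elsewhere its signal was too low for the agreement of the probes to be judged.

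CD40, the receptor of CD40LG, was not well above background at either probe (A_72_P088376 and A_72_P544217) on any of the 9 arrays. Its processed signals were 1.53 to 5.89, and no fold was given. CD40 is carried mainly by B cells, dendritic cells and macrophages, and the fractions were sorted as CD3+. The part of the sort in the low CD40 signal was not tested.

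Counting the probes whose arrays did not overlap gave 4 of 7 tested member probes in DP against CD4, all with DP above, where 10.1% of all tested probes did not overlap and 5.22% did so with DP above. They were those of CD40LG, the dimmer ICOS probe and both CD86 probes. In DP against CD8 it was also 4, of CD40LG, CD28, ICOS and CD86 (dimmer probes), all with DP above, against 9.79% of all probes and 4.59% in that direction. In CD4 against CD8 it was 1, CD40LG, with CD4 above, against 8.01% and 3.78%. The probes of 1 gene share their transcript and are not independent, and the members were chosen with earlier results of these data known.

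Few other genes of the pathway were called. Of 64 listed costimulatory and signalling genes, 24 were on the array by name and 17 were tested. In DP against CD4, 0 of 17 were called, 1 had an unadjusted p under 0.05 in limma, and 0.73% of named genes were called. The smallest p was that of PPP3CA, the calcineurin subunit that acts on NFAT downstream of the T cell receptor and CD28, at 5.85, 4.75 and 5.03 in DP, 3.62, 4.10 and 3.86 in CD4 and 5.54, 5.67 and 4.70 in CD8. DP minus CD4 for PPP3CA was 1.35 (limma adjusted p = 0.306).

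In DP against CD8, 1 of 17 pathway genes was called lower and 0 higher, with 0.863% of named genes called and 0.531% called lower. In CD4 against CD8 it was 1 lower and 0 higher, with 1.13% of named genes called and 0.796% called lower. The gene was CD96 in both, which met the filter through the CD8 fraction alone, so the filter partly set its call. CD96 is a receptor of the nectin-binding family on T and natural killer cells. CD96 was at 1.74, 2.65 and 1.36 in CD8 and did not stand well above background on a single DP or CD4 array. It was at least 14.0-fold lower in DP (limma adjusted p = 0.0128) and at least 14.4-fold lower in CD4 (limma adjusted p = 0.00928), each a bound against background. The call in DP against CD8 became 0 of 17 with the slide as a block and without DP array 1 or 2 or CD8 array 1 or 2. That in CD4 against CD8 became 0 without CD8 array 2.

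By sublist, the 5 tested costimulatory and coinhibitory genes (TNFSF8, CD2, CD58, CD48 and CD96) had median differences of -0.17, -0.06 and -0.05 in DP minus CD4, DP minus CD8 and CD4 minus CD8. The 8 CD28 signalling genes had medians of 0.20, 0.06 and 0.06. The 4 CD40 signalling genes (NFKB1, RELA, NFKBIA and TNFAIP3) had 0.65, 0.77 and 0.22, and the 1507 named genes had medians of -0.0029, 0.02 and -0.02. TNFAIP3, an inhibitor of NF-kB signalling, was at 5.44 to 5.91 in DP, 4.73 to 5.09 in CD4 and 3.74 to 5.42 in CD8, and its DP minus CD8 difference of 1.27 was not called (limma adjusted p = 0.446). The ligands PDCD1LG2 and TNFSF4 did not stand well above background on a single array.

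**Figure D4:**
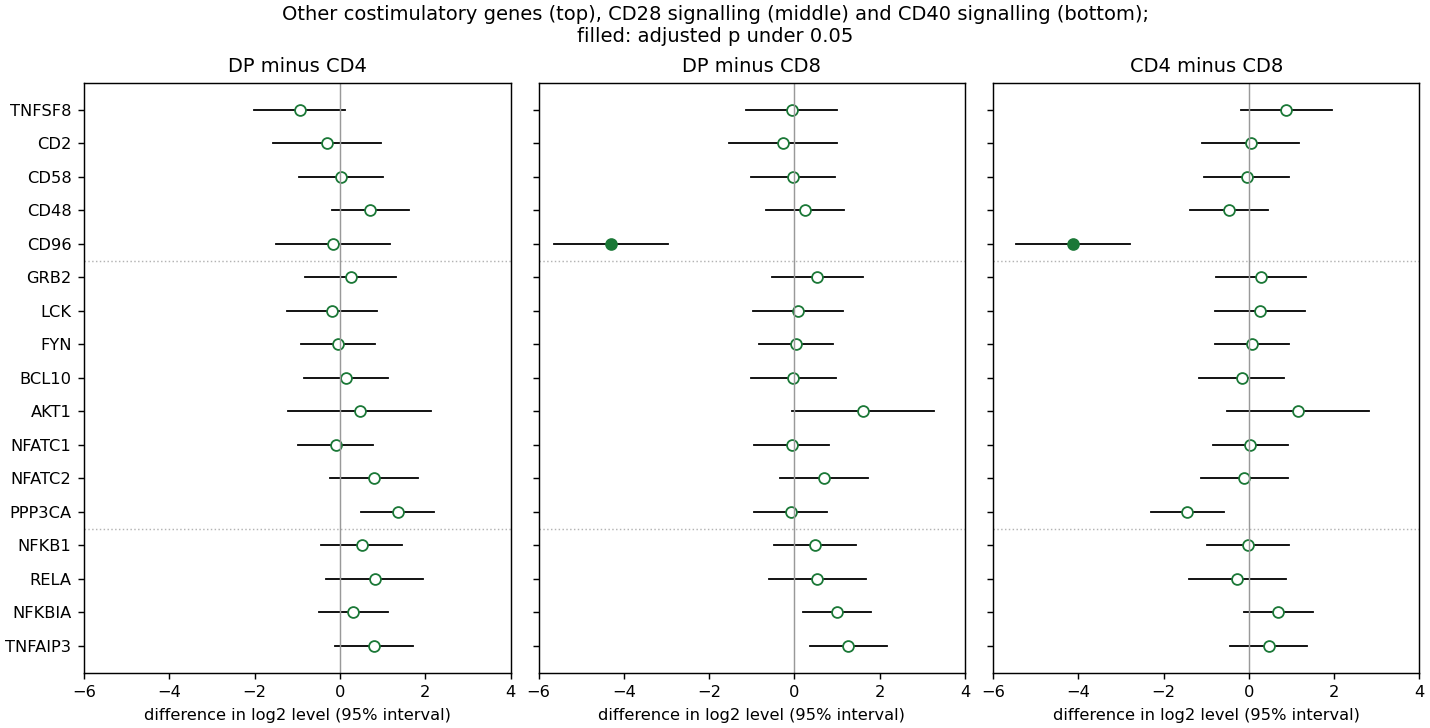
Differences in log2 level for the 17 tested pathway genes (x axis: first minus second fraction; lines: 95% interval; filled: adjusted p under 0.05). CD96 is the filled gene, at -4.30 in DP minus CD8 and -4.13 in CD4 minus CD8, estimates that rest on background levels in DP and CD4.

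The named genes whose profile over the 9 arrays was nearest to each T cell side member were found by the root mean square difference in centred log2 level among 1498 named genes. For CD40LG they were KLF4 (1.01), GATA3 (1.04), NPL (1.099), CGA (1.19) and CD1D (1.20), against a median of 2.09 over all candidates. NPL and CGA were each well above background on 3 DP arrays, 1 CD4 array and no CD8 array. Both met the filter through DP alone, and their likeness to CD40LG outside DP rests largely on background levels. KLF4, a zinc finger transcription factor, was at 2.76, 3.41 and 3.75 in DP, 2.49, 2.95 and 2.10 in CD4, and 0.28, 0.52 and -0.32 in CD8. KLF4 was higher in DP than in CD8 by 3.14 (limma adjusted p = 0.00927) and higher in CD4 than in CD8 by 2.35 (limma adjusted p = 0.0300). GATA3, a transcription factor of helper T cells, lay 2.37 above CD8 in DP without a call (limma adjusted p = 0.226). These genes, and those nearest to CD28 and ICOS below, were picked by their levels on these same arrays. Differences between fractions given for them describe that likeness and are not separate tests.

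The nearest profiles to CD28 were NELFE (0.37), RAB1B (0.37), RAP2B (0.38), TUBB2B (0.40) and ACTC1 (0.41), where the median over the candidates was 0.94. Those to ICOS included DUSP6 (0.40), SERPINF1 (0.46), MKNK1 (0.50) and ATP6V1H (0.51), with a median of 0.98. DUSP6, a phosphatase that switches off ERK kinases, had a mean of 4.52 in DP and 2.80 in CD4, a difference of 1.72 that was not called (limma adjusted p = 0.383).

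**Figure D5:**
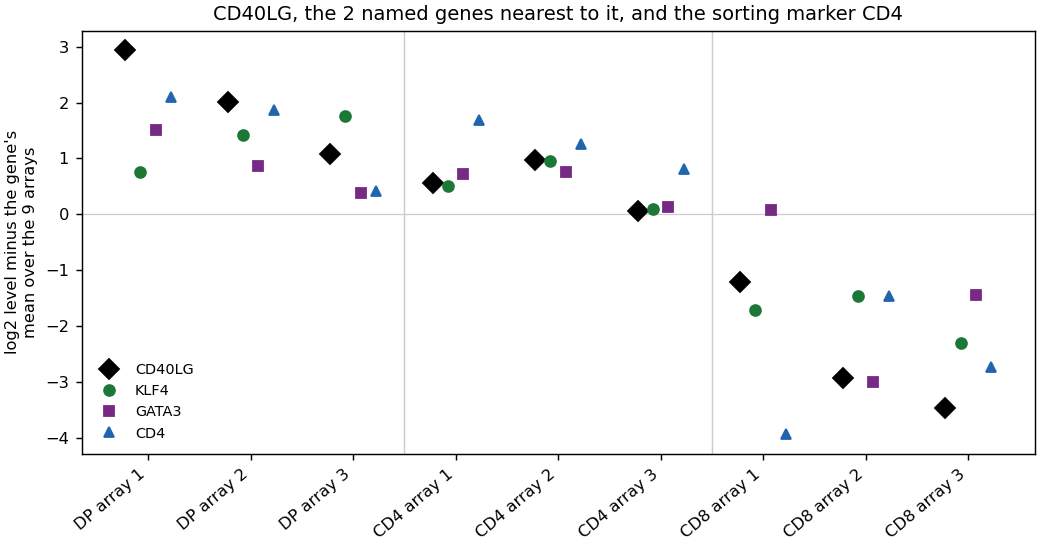
CD40LG, the 2 named genes nearest to it (KLF4 and GATA3) and the sorting marker CD4 on each array (y axis: log2 level minus the gene's own mean over the 9 arrays; x axis: array). All 4 lie above their mean on the DP and CD4 arrays; on CD8 array 1 GATA3 stays near its mean and the CD4 transcript is lowest.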

How the data were processed

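The members and gene lists were chosen with earlier results of these data known. RNA was amplified from 25 ng with the Ovation PicoSL WTA System V2 and labelled with Cy3 for 1-colour Agilent arrays, per the labels. Scanner output came from Agilent Feature Extraction 11.0.1.1, per the file headers, and the processed signal used here is a deposited intensity, already background-corrected, with flags that mark probes well above background. The deposited table of log2 values, made by a method not given in the sources used here, was used as an alternative. Its columns had a common median of 2.60 and rose with scanner signal. Its CD8 columns 1, 2 and 3 matched scanner arrays 3, 1 and 2, whereas the other columns matched their own arrays (r of 0.994 or more).

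From the log2 processed signal of each array, its own 75th percentile over non-control probes was subtracted to give a level. Controls and outlier-marked spots were dropped, and no spot was saturated. Probes were named through RefSeq accessions in the Sscrofa11.1 annotation, which named 15.4% of probes. Genes were read at their brightest tested probe. All 9 arrays entered 1 fit in limma 3.58.1 (R 4.3.3) with a variance trend, checked on simulated data. A bound sets a bright fraction's mean against the background level of the dim one. The number of arrays limits the precision.

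The 64 pathway genes fell into costimulatory and coinhibitory, CD28 signalling and CD40 signalling lists. Markers were listed for B cells, monocytes and macrophages, dendritic cells, natural killer cells, platelets and erythrocytes, and T cells. All member probes were described. Of the pathway list, called genes were named, or the gene with the smallest p, together with TNFAIP3 and the sublists' members, chosen after their values were seen. For each T cell side member with a tested probe, the 5 nearest named genes were given, except an item that is not reported here. Alternatives covered the replicate number or slide as a block, background correction, scaling, the filter, the variance model, array weights and each array left out. Normexp used the median foreground signal and an offset of 50.

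Same-numbered arrays deviated from their fraction means together at r of -0.0667 to 0.647 (median 0.310), against a median of -0.139 for other pairs. Because 1 or more pairs were below 0.1, the numbers were not taken to pair the samples. This rule does not decide whether the samples were paired, and fits with the replicate number as a block are given below. Arrays numbered 2 shared a slide, as did those numbered 3. The deposited scanner files also carry a number shared by same-numbered arrays, and its meaning is not stated there.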

Additional observations from a re-analysis of the deposited data

How the results depend on the processing

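In DP against CD4, 0 of 7 member probes were called, but 1 (CD86) was called with the replicate block, without the filter on dim probes and with array weights, and 0 when any single array was left out. In DP against CD8 the 1 call, CD40LG, became 0 with the slide as a block and with normexp background correction, and 0 to 1 when an array was left out. In CD4 against CD8 the 0 calls became 1 (CD40LG) with the replicate block, the slide block, no filter on dim probes and a fit of only the 2 fractions, and 0 to 1 with an array left out (1 without DP array 3 or CD8 array 1). The pathway count in DP against CD8 went from 1 to 0 with the slide block, normexp and the filter to probes above background on all 9 arrays, which removes CD96, and 0 to 1 with an array left out (0 without DP array 1 or 2, or CD8 array 1 or 2). In CD4 against CD8 it went from 1 to 0 with normexp and that filter, and 0 to 1 with an array left out (0 without CD8 array 2). The cause of the other changes was not tested.

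Signs turned for ICOS in CD4 minus CD8 (0.17 with the slide block, -0.57 to 0.26 with an array left out), CD80 in DP minus CD8 (-0.12 to 0.39 with an array left out) and CD80 in CD4 minus CD8 (-0.563 to 0.0835). In CD4 minus CD8 they also turned at the dimmer ICOS probe (0.05 with array weights, -0.61 to 0.11 with an array left out) and the dimmer CD86 probe (0.10 with the slide block, -1.19 to 0.25). With an array left out, CD40LG in DP minus CD8 ran from 4.08 to 5.20 and its limma adjusted p from 0.00595 to 0.0736. Under settings that keep all arrays, 172 differences at the members' brightest tested probes kept their direction and side of the threshold. Of the others, 2 lost and 5 gained a call, and 1 turned sign. The dimmer ICOS and CD86 probes are outside this count.

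With the replicate number as a block in limma, CD40LG in CD4 minus CD8 had an adjusted p of 0.00746 and the dimmer CD86 probe in DP minus CD4 one of 0.0377, and 144, 83 and 110 probes were called in DP against CD4, DP against CD8 and CD4 against CD8, against 47, 50 and 70 without it. Of the 9 arrays, 7 correlated best with an array of their own number, a hint from the data. All arrays numbered 2 lay on slide 2 and all numbered 3 on slide 3. For these, a shared number and a shared slide cannot be told apart. With CD8 replicate numbers taken from the deposited table instead, a pairing chosen after seeing the data, the CD40LG adjusted p in limma was 0.0536 and the calls were 30, 21 and 50. The slide block left 2, 2 and 38 calls, normexp 1, 7 and 6, and leaving out DP array 1 left 2, 1 and 49. Without the filter 109, 87 and 97 of 43603 probes were called, with array weights 225, 49 and 87, and with the all-array filter 12, 5 and 12 of 11151. Signal over background limits CTLA4, CD40 and the dimmer CD80 probe.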

Other observations

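The profiles nearest to CD86 were also found, a step chosen after seeing the data. They were F2R (a root mean square difference of 0.41 in centred log2 level over 9 arrays), ITGB1 (0.46), FAS (0.57), UCP2 (0.61) and GPX1 (0.69), where the median over 1498 named genes was 1.42. ITGB1, the beta subunit shared by the VLA integrins, was at 8.31, 7.92 and 7.78 in DP, 5.03, 6.24 and 4.56 in CD4, and 6.999, 6.51 and 4.62 in CD8. All DP arrays lay above all others. DP minus CD4 for ITGB1 was 2.73 (limma adjusted p = 0.0767), which was not called. FAS, a death receptor of activated T cells, was at 2.45, 2.41 and 2.02 in DP, -0.20, 0.38 and -0.52 in CD4, and 1.24, 1.05 and -0.83 in CD8. Its DP arrays too lay above all others, and DP minus CD4 was 2.40 (limma adjusted p = 0.107). F2R, the thrombin receptor, was well above background on the 3 DP arrays alone and met the filter through them. Its DP signal was at least 3.40-fold that of the CD4 fraction and at least 2.35-fold that of the CD8 fraction. Neither difference was called (limma adjusted p = 0.170 and 0.664). Of all tested probes, 5.22% had every DP array above every CD4 array, and 4.59% had every DP array above every CD8 array. ITGB1, FAS and F2R were picked by their likeness to CD86 on these same arrays. Their differences describe that likeness and are not separate tests.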
